A study of Mus musculus with 8 samples.

Results

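The genes described here are the glucocorticoid receptor gene, 1 gene of local hormone activation and 8 genes that the receptor is known to induce, measured by bulk RNA sequencing in visceral white adipose tissue (vWAT). They are the rows whose Ensembl identifiers map to Nr3c1, Hsd11b1, Zbtb16, Fkbp5, Per1, Tsc22d3, Sgk1, Klf9, Pdk4 and Cited2, which is 10 of 31053 genes in the count table. They were selected on the KIKO against WT values of these same mice, including the high values of the mouse WT 1, so their levels and fold changes are a description and carry no test. The vWAT came from the epididymal depot of 4 KIKO and 4 WT male mice aged 8 months, with 1 library per mouse. KIKO (knock-in knock-out) mice are a model of Friedreich's ataxia, and WT mice were littermates on C57BL/6. Both genotypes were kept on a normal diet and a daily light and dark cycle. The time of day of tissue collection, plasma corticosterone and receptor protein were not given in the sources used here or not analysed here.

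Corticosterone, the main glucocorticoid of mice, enters the cell and binds the glucocorticoid receptor, a nuclear receptor held by heat shock proteins in the cytoplasm. The bound receptor moves to the nucleus, binds DNA at palindromic elements and raises or lowers transcription of nearby genes. In adipose tissue glucocorticoids are known for effects on lipolysis, adipocyte differentiation and inflammation, and their blood level follows the time of day and stress.

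For the glucocorticoid response element, the sequence searched was the perfect palindrome, AGAACA and its reverse complement TGTTCT with any 3 bases between. The following promoter windows are shown because they hold 1 such palindrome, 1 of its arms alone or the E-box CACGTG bound by clock proteins. Other Sgk1 windows with an arm alone, at −195 and at −13 from their own starts, are not shown. Windows of 300 bases, from 250 before to 50 after an annotated start, came from RefSeq on GRCm38.p6, where 8 of the 10 genes matched with 16 windows in all. Sgk1, Per1 and Tsc22d3 had more than 1 window each, at alternative starts. They are written 5′ to 3′ along the gene, with the matched motifs in capitals.
Sgk1, chr10:21993640-21993939, plus strand: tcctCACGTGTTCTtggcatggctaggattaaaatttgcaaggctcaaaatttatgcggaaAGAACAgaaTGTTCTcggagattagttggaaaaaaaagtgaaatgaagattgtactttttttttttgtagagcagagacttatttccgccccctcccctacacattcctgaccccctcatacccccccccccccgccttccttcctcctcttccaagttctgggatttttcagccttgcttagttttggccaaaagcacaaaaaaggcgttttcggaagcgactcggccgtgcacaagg
Tsc22d3, chrX:140600473-140600772, minus strand: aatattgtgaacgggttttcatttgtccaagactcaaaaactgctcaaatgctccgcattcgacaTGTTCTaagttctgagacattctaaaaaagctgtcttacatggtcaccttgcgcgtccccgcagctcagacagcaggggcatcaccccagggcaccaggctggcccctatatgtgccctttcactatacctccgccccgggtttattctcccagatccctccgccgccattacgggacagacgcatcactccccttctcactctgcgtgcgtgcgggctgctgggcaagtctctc
Per1, chr11:69098699-69098998, plus strand: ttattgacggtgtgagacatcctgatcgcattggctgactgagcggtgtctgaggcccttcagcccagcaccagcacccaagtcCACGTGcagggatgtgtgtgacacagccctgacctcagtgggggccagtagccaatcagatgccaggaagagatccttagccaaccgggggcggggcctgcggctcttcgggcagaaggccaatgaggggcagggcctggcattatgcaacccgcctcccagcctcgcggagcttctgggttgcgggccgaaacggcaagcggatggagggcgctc
Cited2, chr10:17722978-17723277, plus strand: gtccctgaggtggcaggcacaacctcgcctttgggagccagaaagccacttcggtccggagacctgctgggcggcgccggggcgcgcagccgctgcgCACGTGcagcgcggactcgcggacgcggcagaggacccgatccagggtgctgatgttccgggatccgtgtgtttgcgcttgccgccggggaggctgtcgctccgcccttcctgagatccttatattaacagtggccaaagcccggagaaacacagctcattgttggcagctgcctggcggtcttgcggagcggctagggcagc
Fkbp5, chr17:28486100-28486399, minus strand: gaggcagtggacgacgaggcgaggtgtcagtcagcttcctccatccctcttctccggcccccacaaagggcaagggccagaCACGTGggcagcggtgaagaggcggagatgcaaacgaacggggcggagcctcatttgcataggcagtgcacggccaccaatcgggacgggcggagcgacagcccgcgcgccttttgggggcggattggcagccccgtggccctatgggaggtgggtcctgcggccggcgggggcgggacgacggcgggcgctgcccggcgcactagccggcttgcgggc

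The Sgk1 window shown, 1 of several for this gene, held the full palindrome with its first base at −189 from the start. Beside it was an E-box at −246 that overlaps a further TGTTCT at −242. The full palindrome stood in 3 of the 32851 windows searched on both strands (0.00913%), and Sgk1 was the 1 member that had it. The Tsc22d3 window shown held TGTTCT at −185. A single arm, in either orientation, stood in 4 of the 16 member windows (those of Sgk1 and Tsc22d3) and in 19.0% of all windows. The E-box stood at −166 in Per1, −153 in Cited2 and −169 in Fkbp5, and 4 of the 16 member windows had it, against 7.15% of all windows. TGACG or its complement CGTCA, an arm of the cAMP response element, stood in 5 of the 16 member windows and in 20.8% of all windows, and it is not capitalised. These matches describe letters in a window and not bound sites, and known response elements of these genes can lie outside it. Only exact matches were searched, so an inexact element inside a window was not counted. Zbtb16 and Nr3c1 are named only.

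Libraries held between 2602189 and 3478539 counts, and levels are given as CPM, the counts scaled to a common library size with TMM, a normalization for differences in RNA composition. They are compared between mice and not between genes, because they are not divided by gene length. Of 11080 genes that passed a filter on low counts, 31 were higher (0.28%) and 44 lower (0.397%) in KIKO at an adjusted p under 0.05 by edgeR's quasi-likelihood test. On the first principal component, with 32.3% of the variance, WT 3 lay at 12.6 among the KIKO mice (4.04 to 24.0), whereas the other WT mice lay between −38.6 and −8.43. The adipocyte markers summed to between 50554 and 67573 CPM in KIKO mice and between 38941 and 45758 CPM in WT mice, with 0 of 10 passing. Of these 10, 7 had log2 fold changes above 0 and 3 below, with a median of 0.15. The macrophage markers summed to 1874 to 2212 CPM in KIKO mice and 1470 to 1737 CPM in WT mice, with 1 of 8 (Lyz2) higher. Of the mesothelial markers 1 of 5 (Krt19) and of the mast cell markers 2 of 5 (Cpa3 and Cma1) were higher, while the other 3 mast cell markers had log2 fold changes below 0 and did not pass (Kit −1.24, Mcpt4 −0.39 and Tpsb2 −0.34). The progenitor markers summed to 3158 to 3739 CPM in KIKO mice and 2600 to 2999 CPM in WT mice, with 0 of 8 passing. Of these 8, 5 had log2 fold changes above 0 and 3 below, with a median of 0.11. In addition, 0 of 3 lymphocyte markers passed (edgeR). The endothelial markers summed to 483 to 777 CPM in KIKO mice and 718 to 922 CPM in WT mice, with 0 of 8 passing, and the epididymal markers were near 0, at most 1.20 CPM in KIKO mice and 1.21 CPM in WT mice. The part of these shifts in the values below was not tested. In bulk tissue, fewer cells of a type and less RNA per cell cannot be told apart.

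For the receptor gene itself the KIKO and WT ranges overlapped. Nr3c1 (chr18:39410545-39519421, positions on GRCm38 here and below) had 96.7, 78.7, 123 and 112 CPM in KIKO mice 1 to 4, against 100.5, 129.9, 96.4 and 99.1 CPM in WT mice 1 to 4. KIKO 2 was the lowest mouse and WT 2 the highest, the other mice were mixed in order, and the log2 fold change was −0.05 (SE 0.15). Hsd11b1 (chr1:193221634-193264075), the enzyme that regenerates active corticosterone from its inactive form inside the cell, had 118, 114, 73.2 and 94.6 CPM in KIKO mice 1 to 4, against 79.3, 96.9, 165 and 118 CPM in WT mice 1 to 4. The lowest KIKO and the lowest WT mouse were close together, and its highest value was that of WT 3. The log2 fold change of Hsd11b1 was −0.20 (SE 0.20), and without WT 3 it was 0.03, so that its sign turned.

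The log2 fold changes furthest below 0 were those of Sgk1 and Zbtb16, and among the 8 targets Cited2 had the narrowest range of fold changes when 1 mouse was left out. Zbtb16 (chr9:48654297-48836222), also called PLZF, encodes a zinc finger repressor that glucocorticoids induce in many cell types. It had 78.9, 187, 83.3 and 105 CPM in KIKO mice 1 to 4, against 461, 281, 161 and 272 CPM in WT mice 1 to 4. KIKO 2, the highest KIKO mouse, lay above WT 3, the lowest WT mouse, and all other KIKO mice lay below every WT mouse. The means were 113 ± 50.1 CPM in KIKO mice and 294 ± 124 CPM in WT mice (SD, n = 4 each). On the log2 scale the fold change was −1.38 (SE 0.29), or 0.384-fold. Without WT 1 it was −1.08.

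Sgk1 (chr10:21882184-21999903) encodes a kinase induced by serum and glucocorticoids that acts on ion transport and FOXO factors, and 1 of its several promoter windows held the full palindrome. It had 15.8, 26.4, 11.7 and 21.4 CPM in KIKO mice 1 to 4, against 96.7, 46.9, 19.7 and 46.2 CPM in WT mice 1 to 4. WT 3 lay among the KIKO mice, and WT 1 had about the sum of WT 2 and WT 4. Its log2 fold change was −1.49 (SE 0.36), and −1.01 without WT 1.

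Cited2 (chr10:17723218-17725674), whose product binds the coactivators CBP and p300 and restrains hypoxia-inducible factor, had groups that did not overlap. It had 31.7, 54.4, 46.0 and 45.4 CPM in KIKO mice 1 to 4, against 99.5, 66.0, 67.6 and 90.8 CPM in WT mice 1 to 4. KIKO 2, the highest KIKO mouse, stayed below WT 2, the lowest WT mouse. The means were 44.4 ± 9.39 CPM in KIKO mice and 81.0 ± 16.8 CPM in WT mice (SD, n = 4 each). Its log2 fold change was −0.87 (SE 0.18), and leaving out any 1 mouse gave −0.98 to −0.74.

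Per1 (chr11:69095217-69109960), a repressor of the circadian clock that glucocorticoids also induce directly, was the other of the 10 genes whose groups did not overlap. It had 25.7, 26.8, 7.13 and 23.4 CPM in KIKO mice 1 to 4, against 54.8, 32.4, 33.1 and 29.8 CPM in WT mice 1 to 4. KIKO 3 stood far below the other KIKO mice and WT 1 far above the other WT mice, which were close to KIKO 1, 2 and 4. The log2 fold change was −0.86 (SE 0.30), −0.62 without WT 1 and −0.57 without KIKO 3. In all, 2 of the 10 genes had all KIKO mice below the WT range, against 4.56% of all genes tested.

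**Figure D1:**
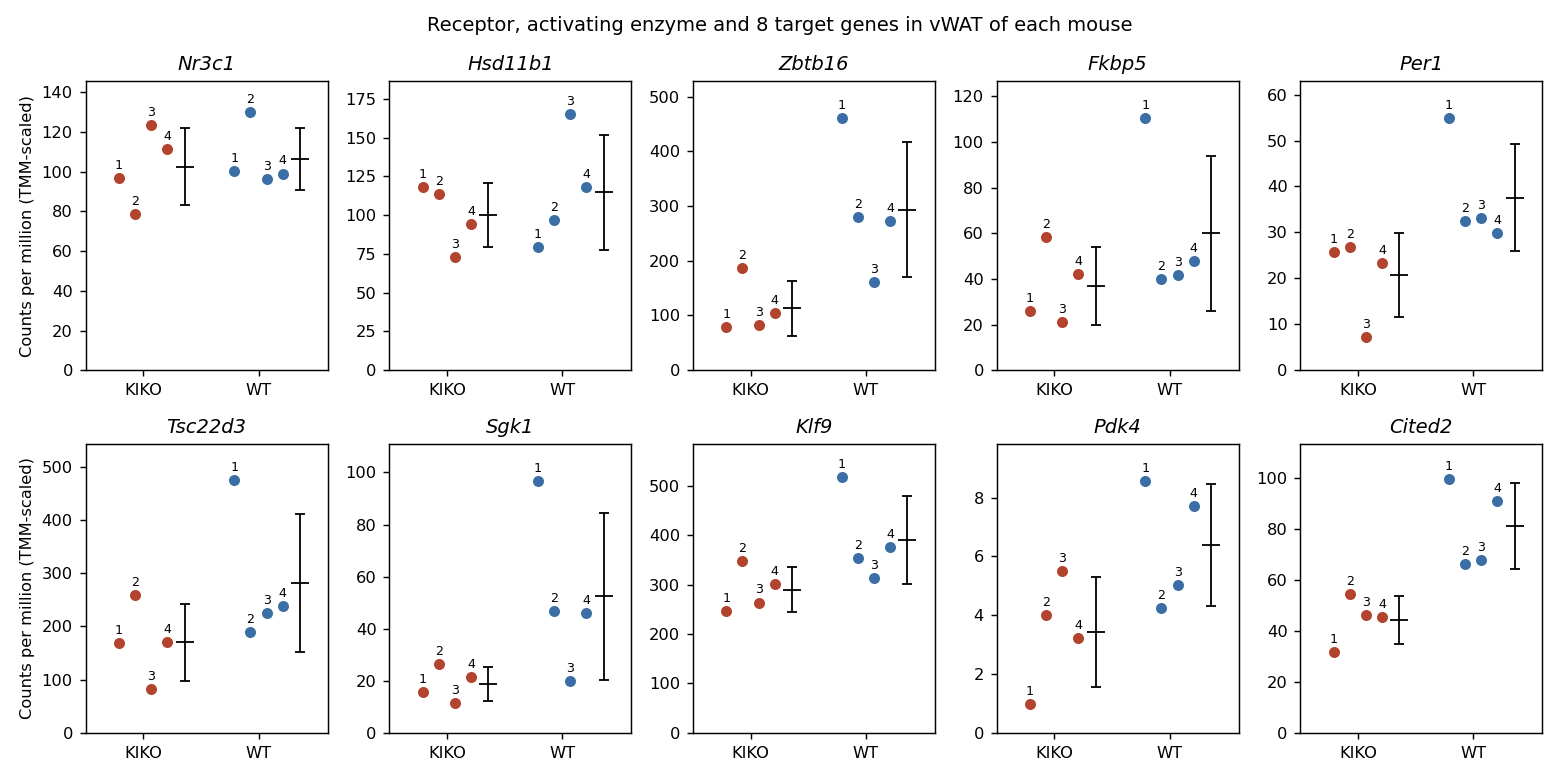
TMM-scaled CPM (vertical axes, each from 0) of the 10 genes in each mouse, with KIKO mice left (red) and WT mice right (blue); numbers are mouse numbers, and bars give the mean ± SD of 4 mice. WT 1 is the highest of the 4 WT mice in 8 of the 10 panels, and KIKO and WT do not overlap for Per1 and Cited2.

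For Fkbp5 and Tsc22d3, KIKO 2 lay above 3 of the 4 WT mice. Fkbp5 (chr17:28399094-28517527) encodes a co-chaperone that lowers the hormone affinity of the receptor, and its own induction is a common readout of receptor activity. It had 26.1, 58.3, 21.1 and 42.2 CPM in KIKO mice 1 to 4, against 111, 40.0, 41.5 and 47.9 CPM in WT mice 1 to 4. WT 1 stood far above all other mice, and KIKO 4 lay above WT 2 and 3. The log2 fold change was −0.71 (SE 0.33) with all mice and −0.24 (SE 0.25) without WT 1. Tsc22d3 (chrX:140539528-140600659) encodes the leucine zipper protein GILZ, which mediates part of the anti-inflammatory action of glucocorticoids. It had 169, 259, 81.6 and 171 CPM in KIKO mice 1 to 4, against 474, 189.6, 226 and 238 CPM in WT mice 1 to 4. WT 1 was again the highest mouse, and KIKO 3 was the lowest. The log2 fold change was −0.73 (SE 0.30), and −0.36 (SE 0.24) without WT 1.

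Klf9 (chr19:23141226-23168134), a Krüppel-like transcription factor induced by glucocorticoids and thyroid hormone, differed less. It had 246, 348, 264 and 301 CPM in KIKO mice 1 to 4, against 518, 353, 313 and 376 CPM in WT mice 1 to 4. KIKO 2 lay above WT 3 and just below WT 2, and the log2 fold change was −0.43 (SE 0.16), or −0.26 without WT 1. Pdk4 (chr6:5483351-5496309), the kinase that switches off pyruvate dehydrogenase in fasting, was counted only 3 to 27 times per library. It had 0.990, 4.00, 5.51 and 3.22 CPM in KIKO mice 1 to 4, against 8.56, 4.24, 5.02 and 7.70 CPM in WT mice 1 to 4. KIKO 3 lay above WT 2 and WT 3, the log2 fold change was −0.89 (SE 0.40), and leaving out any 1 mouse gave −1.22 to −0.58.

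All 10 genes were in the fit, and all 10 log2 fold changes were below 0, with a median of −0.80 beside −0.01 over all genes tested. At an adjusted p under 0.05, 2 of the 10 (Zbtb16 and Cited2) were lower in KIKO beside 0.397% of all genes, and 0 were higher beside 0.28%. At an unadjusted p under 0.05, 8 of the 10 were lower beside 9.06% of all genes, and 0 were higher beside 7.13%. Nothing is read from these counts, since the same contrast chose the genes. Without WT 1 the median was −0.49 and 0 of the 10 passed, beside 0.205% of all genes lower. Zbtb16 and Cited2 lay near the threshold both with all mice and without WT 1. Without WT 3, 3 of the 10 passed (Zbtb16, Sgk1 and Cited2) with a median of −0.88, beside 3.28% of all genes lower, and without KIKO 3 the median was −0.54 and 0 passed. Leaving out WT 2, WT 4, KIKO 1 or KIKO 4 also left 0 of the 10 past the threshold, and leaving out KIKO 2 left 1, Zbtb16. Without WT 2, WT 4 or KIKO 4, however, 0 genes of the whole fit passed. Genes lower in the whole fit numbered 2 of 11274 without KIKO 1, 10 of 11287 without KIKO 2 and 5 of 11261 without KIKO 3.

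**Figure D2:**
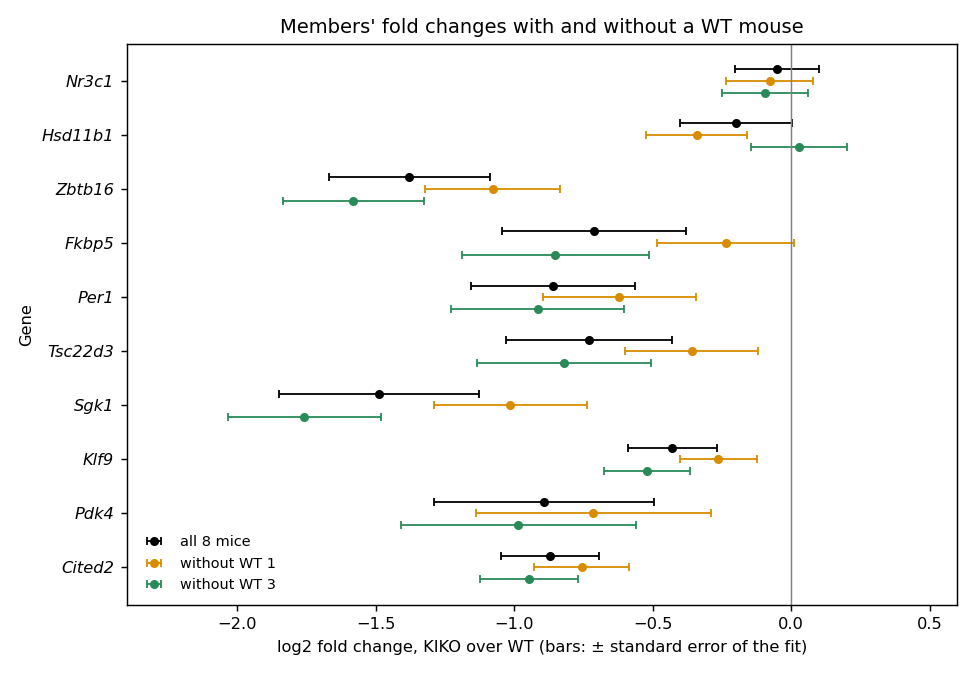
Log2 fold change of KIKO over WT (horizontal axis) for each of the 10 genes, with bars of ± 1 standard error of the fit, for all 8 mice (black), without WT 1 (orange) and without WT 3 (green). Without WT 1, Fkbp5 has −0.24 beside −0.71 with all mice, whereas Cited2 has −0.76 beside −0.87.

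Within each genotype, most of the 10 genes had the same highest mouse. WT 1 was the highest of the WT mice in 8 of the 10 genes, all but Nr3c1 and Hsd11b1, and the highest of all 8 mice in the same 8, whereas it was the highest WT mouse in 31.0% and the highest of 8 in 20.8% of all genes tested. KIKO 2 was the highest KIKO mouse in 7 of the 10 genes (26.8% of all genes), and KIKO 3 was the lowest in 5 (27.5% of all genes). These counts were the same under other scalings. They are a description and nothing is read from them, since the 10 genes were chosen with the high values of WT 1 known. Over the 10 genes, the median deviation from the gene's mean, in log2(CPM + 0.5), was −0.57, 0.06, −0.76 and −0.20 in KIKO mice 1 to 4, against 0.99, 0.13, 0.05 and 0.21 in WT mice 1 to 4. Over all genes tested it was at most 0.02 in any mouse. On this measure WT 2, 3 and 4 lay close together and far below WT 1, and KIKO 2 lay between WT 3 and WT 2.

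A list of 32 further genes known to be induced by glucocorticoids was written without the 10. Bcl6, Rgs2, Mertk and Kit were left out of it because their values here were already known. The list includes Per2, which is counted again among the clock genes and the relatives below. In the fit were 30 genes of the list. Of these, 1 was lower (beside 0.397% of all genes), 0 were higher (beside 0.28%) and 29 did not pass. At an unadjusted p under 0.05, 8 were lower and 3 higher, beside 9.06% and 7.13% of all genes. The median log2 fold change was −0.25. The gene that fell was Cebpd, a transcription factor of early adipocyte differentiation. It had 30.7, 32.0, 23.0 and 29.9 CPM in KIKO mice 1 to 4, against 107, 55.7, 34.8 and 68.3 CPM in WT mice 1 to 4. No KIKO mouse reached the lowest WT mouse, and the log2 fold change was −1.20 (SE 0.26, edgeR adjusted p = 0.0464), or −0.88 without WT 1. It no longer passed when any 1 mouse other than WT 3 was left out (edgeR adjusted p 0.0616 to 0.177). Its exons overlap those of Spidr on the other strand. Fam107a, a stress-induced actin-binding protein, also had groups that did not overlap in CPM. It had 2.59 to 4.69 CPM in KIKO mice and 5.02 to 21.2 CPM in WT mice (log2 fold change −1.47, edgeR adjusted p = 0.100). It was counted only 8 to 67 times per library, and KIKO 4 had 16 counts beside 15 in WT 3. All KIKO mice lay below all WT mice in 2 of the 30 genes, beside 4.56% of all genes tested. By DESeq2 1 gene of the list passed, Cebpd, and by limma 0.

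Not all other genes of the wider list shared 1 order of the mice. Gpd1, an enzyme of glycerol phosphate synthesis named after its values were seen, had 729 to 1056 CPM in KIKO mice and 334 to 1202 CPM in WT mice, with WT 1 the lowest and WT 3 the highest of all mice. Klf15, a factor of amino acid and lipid metabolism, had 9.24, 7.59, 7.77 and 8.79 CPM in KIKO mice 1 to 4, against 15.2, 14.5, 8.03 and 15.4 CPM in WT mice 1 to 4. WT 3 lay among the KIKO mice, and the log2 fold change was −0.67 (edgeR adjusted p = 0.177). The metallothioneins Mt1 and Mt2, chosen here after their values were seen, bind metals and are induced by glucocorticoids. Mt1 had 573, 1494, 678 and 898 CPM in KIKO mice 1 to 4, against 2243, 635, 596 and 833 CPM in WT mice 1 to 4. Mt2 had 147, 729, 346 and 368 CPM in KIKO mice 1 to 4, against 1340, 240.2, 194 and 421 CPM in WT mice 1 to 4. For both, WT 1 was the highest mouse and KIKO 2 the next, but the other 3 WT mice overlapped the KIKO mice. WT 1 was the highest WT mouse in 21 of the 30 genes, and WT 3 the lowest in 17, against 31.0% and 33.2% of all genes tested. Of all 8 mice, WT 1 was the highest in 19 of the 30 genes, against 20.8% of all genes tested. Without WT 1 the median of the list was −0.08 and 0 of 30 passed, beside 0.205% of all genes lower. Without WT 3 the median was −0.30 and 5 were lower, beside 3.28% of all genes. These 5 were Cebpd, Fam107a, Klf15, Dusp1 and Nfkbia, of which Dusp1 and Nfkbia are named after their values were seen.

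**Figure D3:**
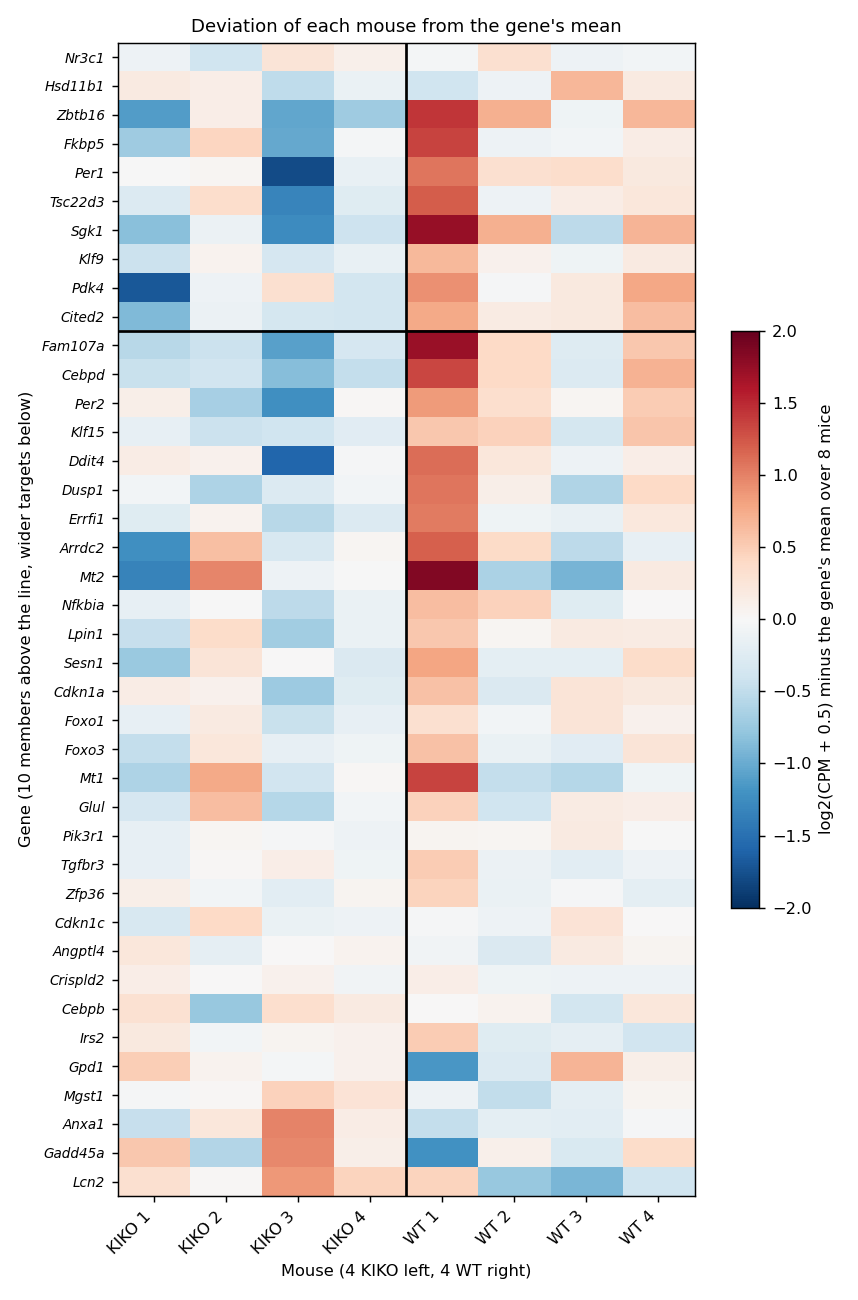
Colour gives log2(CPM + 0.5) of each mouse minus the gene's mean over 8 mice, for the 10 genes (above the line) and 30 wider target genes (below, ordered by log2 fold change); columns are KIKO mice 1 to 4, then WT mice 1 to 4. The WT 1 column is red in most rows, and the deepest blue of the Per1 row is in the KIKO 3 column.

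Genes of the receptor complex had fold changes on both sides of 0. Of 22 chaperones and coregulators in the fit, 0 passed in either direction by edgeR, and the median log2 fold change was 0.05. At an unadjusted p under 0.05 (edgeR), 1 was lower and 3 were higher, beside 9.06% and 7.13% of all genes. The smallest p was that of Hspa8, a constitutive heat shock chaperone, with 322 to 464 CPM in KIKO mice and 214 to 322 CPM in WT mice (log2 fold change 0.56, edgeR adjusted p = 0.0949). Hspa8 passed without WT 3 (edgeR adjusted p = 0.0157), a fit in which 285 of 11261 genes were higher. It was also the 1 gene of this list that passed by DESeq2, while 0 passed by limma. Dnaja1, the J-domain partner of Hspa8, had 79.1 to 118 CPM in KIKO mice and 59.6 to 78.4 CPM in WT mice, which did not overlap. Ncoa2, a receptor coactivator, had 16.0 to 18.8 CPM in KIKO mice and 20.7 to 27.6 CPM in WT mice. All KIKO mice lay above all WT mice in 3 of the 22 genes and below in 1, beside 431 and 505 of 11080 genes tested. Fkbp4, which competes with Fkbp5 for the receptor complex and favours its nuclear transport, had 147, 140.3, 115 and 147 CPM in KIKO mice 1 to 4, against 94.2, 112, 142 and 104 CPM in WT mice 1 to 4. Its log2 fold change was 0.28 (SE 0.14) beside −0.71 for Fkbp5.

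For hormone supply and clearance, 6 of 12 genes were in the fit and 0 passed by edgeR, DESeq2 or limma. At an unadjusted p under 0.05 (edgeR), 2 were lower and 0 higher, beside 9.06% and 7.13% of all genes. H6pd, which feeds cofactor to Hsd11b1, had 115 to 185 CPM in KIKO mice and 127 to 197 CPM in WT mice, a log2 fold change of 0.03. Abcb1a, a pump that exports steroids, had 17.2 to 22.7 CPM in KIKO mice and 20.4 to 45.7 CPM in WT mice (log2 fold change −0.72, edgeR adjusted p = 0.119). Without WT 3 it passed (edgeR adjusted p = 0.0135), as did its copy Abcb1b (0.0271), beside 3.28% of all genes lower in that fit. Hsd11b2, the enzyme that inactivates corticosterone, was counted 0 to 4 times, and Nr3c2, the mineralocorticoid receptor gene, 0 to 6 times per library, so no difference was detectable at this depth. Of 16 genes known to be repressed by the receptor, mostly cytokines, 4 were in the fit and 0 passed by edgeR, DESeq2 or limma. At an unadjusted p under 0.05 (edgeR), 1 was lower and 0 were higher, beside the same 9.06% and 7.13%. That 1 was the adhesion molecule Vcam1, at 19.1 to 32.0 CPM in KIKO mice and 29.8 to 55.8 CPM in WT mice. Il6, named after its values were seen, had at most 1 count.

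Clock genes were examined because Per1 is also a clock gene. The list of 17 was written without Per1, whose values are given above and are not in the counts here. Of the 17, 15 were in the fit and 0 passed by edgeR, with a median log2 fold change of −0.07. At an unadjusted p under 0.05 (edgeR), 5 were lower and 2 higher, beside 9.06% and 7.13% of all genes. By DESeq2 1 passed, Per3, and by limma 0. Per2 and Per3, the other period genes, are repressors of the same loop. Per2 had 10.6, 5.99, 3.89 and 9.96 CPM in KIKO mice 1 to 4, against 18.1, 12.4, 10.04 and 14.1 CPM in WT mice 1 to 4. Per3 had 27.4, 25.2, 11.3 and 15.5 CPM in KIKO mice 1 to 4, against 29.5, 38.2, 35.1 and 35.5 CPM in WT mice 1 to 4. Per3 groups did not overlap, and for Per2 only KIKO 1 lay above a WT mouse (WT 3), with log2 fold changes of −0.83 for Per2 (edgeR adjusted p = 0.174) and −0.81 for Per3 (0.100). Dbp, an output factor of the clock, had 4.62 to 7.91 CPM in KIKO mice and 1.90 to 4.54 CPM in WT mice, at a log2 fold change of 0.91 (edgeR adjusted p = 0.191). Bhlhe41, a clock repressor, had 4.54 to 6.39 CPM in KIKO mice and 2.22 to 3.35 CPM in WT mice. Neither overlapped, Dbp only narrowly (4.62 beside 4.54 CPM), and their direction was opposite to that of the period genes. Both fell below 10 counts in at least 1 library. All KIKO mice lay above all WT mice in 2 of the 15 clock genes and below in 2, beside 431 and 505 of 11080 genes tested. The hour of collection was not given, and its part in these values was not tested.

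Immediate early genes, which handling and dissection can raise, had 13 of 17 in the fit and 0 past the threshold by edgeR, DESeq2 or limma. At an unadjusted p under 0.05 (edgeR), 0 were lower and 1 higher, beside 9.06% and 7.13% of all genes. Egr1, an early zinc finger factor, had 17.98 to 31.1 CPM in KIKO mice and 11.4 to 18.1 CPM in WT mice, a log2 fold change of 0.69. Atf3, a stress factor, had 2.05 to 6.48 CPM in KIKO mice and 3.01 to 9.71 CPM in WT mice, a log2 fold change of −0.73.

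Relatives of the 10 genes, which include Per2, Per3 and Klf15, had 24 of 30 in the fit and 0 past the threshold by edgeR. Their median log2 fold change was −0.03. At an unadjusted p under 0.05 (edgeR), 8 were lower and 1 higher, beside 9.06% and 7.13% of all genes. By DESeq2 1 passed, Per3, and by limma 0. Without WT 3 edgeR called 4 lower, beside 3.28% of all genes (Klf15, Zbtb7a, Zbtb20 and, named after its values were seen, Klf2). Tsc22d1, the paralog of Tsc22d3 that encodes a TGF-beta responsive protein, had 191 to 287 CPM in KIKO mice and 174 to 197 CPM in WT mice, a log2 fold change of 0.29 beside −0.73 for Tsc22d3. Tsc22d4 had 35.98 to 48.4 CPM in KIKO mice and 35.5 to 46.0 CPM in WT mice, a log2 fold change of −0.03. Sgk3, a kinase related to Sgk1, had 7.45 to 14.0 CPM in KIKO mice and 12.05 to 19.0 CPM in WT mice, a log2 fold change of −0.64. The KIKO and WT ranges of these 3 genes overlapped. Pdk2, another pyruvate dehydrogenase kinase, had 94.1 to 144 CPM in KIKO mice and 127 to 193 CPM in WT mice, a log2 fold change of −0.43. Zbtb20, a zinc finger repressor of the family of Zbtb16, had 656 to 854 CPM in KIKO mice and 758 to 1216 CPM in WT mice, a log2 fold change of −0.46 (edgeR adjusted p = 0.156). Cited4, a relative of Cited2, was counted 1 to 6 times per library and did not enter the fit.

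**Figure D4:**
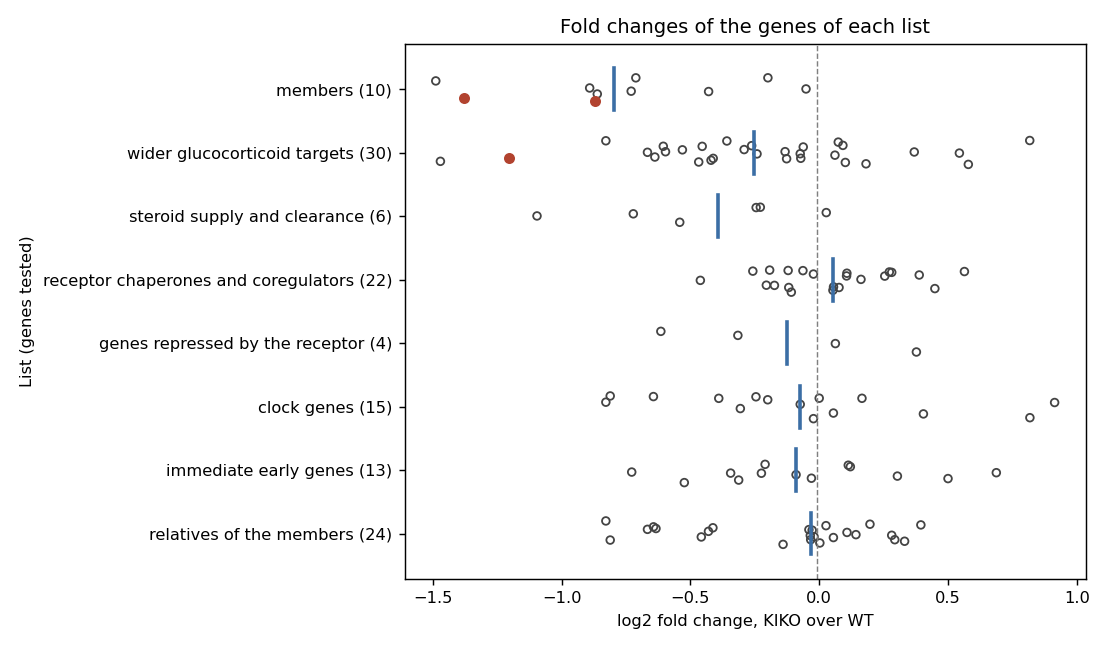
Log2 fold change of KIKO over WT (horizontal axis) for every gene in the fit, by list, with the number of genes in brackets; filled points passed an adjusted p of 0.05, blue bars are list medians and the dashed line is the median of all genes (−0.01). The 10 genes, chosen on this contrast, have a median of −0.80, the wider targets −0.25 and the relatives −0.03.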

How the data were processed

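RNA of vWAT from 8 mice was sequenced, with 1 library per mouse. The deposited raw counts per Ensembl gene were the values used, and the authors' table of log2 values (normalized count plus 1) served only as an alternative. Per the paper's methods and the labels, reads were trimmed with Trimmomatic and aligned to GRCm38 with HISAT2; the paper adds StringTie. The sources differ on kit and instrument (a stranded mRNA kit and NextSeq, or a digital mRNA-seq service and NovaSeq), and the annotation release was not given in the sources used here, so overlapping genes cannot be told apart with certainty. Symbols and positions came from GENCODE M21, where 31011 of 31053 genes matched.

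The model was fitted to raw counts in edgeR 4.0.16 under R 4.3.3 (TMM normalization, filterByExpr by genotype, quasi-likelihood test, genotype as the only term), and p was adjusted by the Benjamini-Hochberg method over 11080 genes with a threshold of 0.05. The steps were tested on simulated data. The level of the gene targeted in KIKO mice is not reported here. Alternatives were other normalizations and filters, DESeq2 1.42.0, limma 3.58.1, the replicate number as a block and leaving out each mouse. Per-mouse CPM values were TMM-scaled.

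The 10 genes and all lists were chosen with earlier results of these data known. Genes named from a list were those past the threshold and, where fewer than 4 passed, those with the smallest p up to 4, with a set of named relatives and partners; others are marked. Library depth limits the precision of low genes.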

Additional observations from a re-analysis of the deposited data

Results flagged for a closer look

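Of 90 sets of 4 mice tested for 1 mouse far from the other 3 (Dixon's ratio), 11 were marked, or 12.2%. Chance marks about 5% of sets, but many of these genes were chosen with the same values known, so the share is a description and no test. Among KIKO mice, Per1 was far lower in KIKO 3 (7.13 CPM), while Tsc22d4 (48.4 CPM) and Pdk2 (144 CPM) were far higher in KIKO 2. WT 1 was far higher in Fkbp5 (111 CPM), Per1 (54.8 CPM), Tsc22d3 (474 CPM), Pdk2 (193 CPM) and Vcam1 (55.8 CPM), and far lower in Bhlhe41 (2.22 CPM). WT 2 was far higher in Nr3c1 (129.9 CPM), and WT 3 far lower in Klf15 (8.03 CPM). Of the marked sets, 5 belong to the 10 genes.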

How the results depend on the processing

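All 10 genes kept a log2 fold change below 0 under every alternative run except Nr3c1, at most 0.06, and Hsd11b1, at most 0.03. The median ranged from −0.99 to −0.49 for the 10 genes, and from −0.42 to −0.08 for the wider targets. Genes past the threshold numbered 75, against 382 with no filter on low counts, 284 by DESeq2 (5941 genes with an adjusted p), 40 by limma-voom, 45 by limma-trend on the authors' values and 0 to 654 when 1 mouse was left out. The count was 0 by edgeR without KIKO 4, WT 2 or WT 4, where 1328, 1344 and 1533 genes had an unadjusted p under 0.05, 4, 19, 18 and 48 without KIKO 1, KIKO 2, KIKO 3 and WT 1, and 654 without WT 3. The wider list had 1 gene past the threshold, against 2 with no filter, 0 by limma-voom and limma-trend, and 0 to 5 when 1 mouse was left out. Scaling by total counts moved the median of all genes by −0.07 and gave 18 higher and 49 lower genes, against 31 and 44. Of the 10 genes, 2 passed (Zbtb16 and Cited2) in the main analysis, against 5 with no filter (also Per1, Tsc22d3 and Sgk1), and 0 by limma-voom and limma-trend.

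Mice with the same replicate number had correlations of deviations of −0.15, −0.13, −0.11 and 0.03 for numbers 1 to 4. The deviations are from means of only 4 mice, so these values cannot decide whether the numbers pair the mice. With the replicate number as a block, edgeR called 0 genes, of the wider list and of the 10 genes also 0, and 1427 had an unadjusted p under 0.05.

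H6pd had a log2 fold change of −0.047 with total counts and −0.082 to 0.19 when 1 mouse was left out (below 0 without KIKO 2, WT 2 or WT 3: −0.082, −0.039 and −0.034). Tsc22d4 had 0.013, 0.0014 and 0.030 without KIKO 1, KIKO 3 and WT 1, and Csf1 −0.013 with total counts and −0.034 to 0.20 when 1 mouse was left out (−0.0019 without KIKO 3). The cause was not tested. Between 2602189 and 3478539 counts per library, genes as low as Pdk4 (3 to 27 counts) are measured with wide counting error.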
